A study of Mus musculus with 4 samples.

Results

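The CXC chemokines described here are 9 genes, Cxcl1, Cxcl2, Cxcl5, Cxcl9, Cxcl10, Cxcl12, Cxcl13, Cxcl14 and Cxcl16, taken by symbol from a table of 55487 genes measured by bulk RNA sequencing of adipocytes from mouse perigonadal fat, a visceral white depot. All 9 were present, each on a single row, and 8 had enough reads to be tested. The animals were male littermates on a standard diet, and the groups were CKO and control mice whose genotype label reads WT, with 2 libraries each. The labels leave CKO unexplained, giving neither the allele nor the cells in which it acts, and give no strain and no age. BLIMP1, a repressor of transcription that Prdm1 encodes, is named in the title together with macrophages. Whether the 2 libraries of a group came from separate mice is not stated, so each test below measures the spread between these libraries only.

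CXC chemokines are small proteins, secreted or shed from the cell surface, named for a pair of conserved cysteines with a single residue between them. They draw leukocytes through G protein-coupled receptors. Cxcl1, Cxcl2 and Cxcl5 carry a glutamate-leucine-arginine motif and draw neutrophils through Cxcr2; their genes are switched on by NF-kB after signals such as Tnf, interleukin 1 or Toll-like receptor ligands. Cxcl9 and Cxcl10 are induced by interferons and draw T and NK cells through Cxcr3. The remaining members are made more constantly: Cxcl12 holds and guides Cxcr4-bearing cells and is made by stromal and vascular cells, Cxcl13 draws B cells through Cxcr5, Cxcl16 is a membrane-bound ligand of Cxcr6 that also takes up oxidised lipoprotein, and Cxcl14 is a tissue chemokine whose receptor is debated. In fat, macrophages are a known source of the neutrophil-drawing group, and the stromal and vascular cells between adipocytes a known source of Cxcl12.

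The promoters of the neutrophil-drawing and the interferon-induced genes are shown because members of these groups differed in opposite directions. RefSeq promoter sequences on GRCm38.p6, each from 250 bases before to 50 bases after the start of the gene, were matched for 7 of the 9 members. They were searched on both strands for the kappaB consensus of NF-kB, a shorter kappaB form (GGGNNTTCC), the core of the interferon-stimulated response element (GAAANNGAAA), the gamma-activated site (TTCNNNGAA) and a core of BLIMP1 sites (AGNGAAAG). The letters below run 5′ to 3′ on the strand of the gene, and capitals mark every match.
Cxcl1, chr5:90890995-90891294, plus strand: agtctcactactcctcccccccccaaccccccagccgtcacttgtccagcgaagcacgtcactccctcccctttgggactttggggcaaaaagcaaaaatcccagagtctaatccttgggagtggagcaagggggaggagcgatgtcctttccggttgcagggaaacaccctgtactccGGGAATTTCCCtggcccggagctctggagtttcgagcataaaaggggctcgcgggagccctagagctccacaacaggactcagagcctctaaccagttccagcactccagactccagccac
Cxcl2, chr5:90903649-90903948, plus strand: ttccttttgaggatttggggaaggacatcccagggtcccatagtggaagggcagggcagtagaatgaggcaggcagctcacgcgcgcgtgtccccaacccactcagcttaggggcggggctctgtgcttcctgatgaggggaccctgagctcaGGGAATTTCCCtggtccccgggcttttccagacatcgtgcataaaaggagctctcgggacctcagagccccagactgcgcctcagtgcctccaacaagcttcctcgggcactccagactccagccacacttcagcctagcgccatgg
Cxcl9, chr5:92328030-92328329, minus strand: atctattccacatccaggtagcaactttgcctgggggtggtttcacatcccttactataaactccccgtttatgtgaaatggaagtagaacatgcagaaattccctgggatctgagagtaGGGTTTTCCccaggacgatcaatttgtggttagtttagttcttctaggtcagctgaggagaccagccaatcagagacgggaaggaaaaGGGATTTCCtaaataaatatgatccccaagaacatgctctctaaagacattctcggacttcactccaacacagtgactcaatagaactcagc
Cxcl10, chr5:92348840-92349139, minus strand: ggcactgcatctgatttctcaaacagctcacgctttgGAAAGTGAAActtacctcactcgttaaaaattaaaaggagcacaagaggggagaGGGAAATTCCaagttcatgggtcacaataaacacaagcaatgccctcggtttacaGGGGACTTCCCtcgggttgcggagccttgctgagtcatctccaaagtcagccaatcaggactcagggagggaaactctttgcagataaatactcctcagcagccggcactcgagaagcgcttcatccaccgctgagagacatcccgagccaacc

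Cxcl1 and Cxcl2 hold the same 11-letter run GGGAATTTCCC, at -71 to -61 in Cxcl1 and at -97 to -87 in Cxcl2 relative to the start, and each run contains overlapping kappaB matches in both orientations. Cxcl10 holds kappaB matches at -159 to -150 and within -104 to -94, where a shorter kappaB match overlaps them, and an interferon response core, GAAAGTGAAA, at -213 to -204. Cxcl9 holds only the shorter kappaB form, at -130 to -122 and at -42 to -34. The kappaB consensus occurred in 3 of the 7 promoters, against 8.46% of 32851 mouse promoters of the same length. The shorter form occurred in 2 of 7, against 5.82%, and the interferon response core in 2 of 7, Cxcl10 and Cxcl14, against 3.44%. Cxcl14 held the only gamma-activated site, a motif in 8.3% of all promoters. The BLIMP1 core occurred in 0 of 7, against 8.63%. These matches are a description of letters in this window and show no binding.

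The libraries held 24152081 to 26742547 reads. WT replicate 2 stood apart in its cell type markers. Adgre1, which encodes the macrophage protein F4/80, had 1384 and 3106 reads in CKO replicates 1 and 2, against 8071 and 31880 in WT replicates 1 and 2. Adipoq, which encodes the hormone adiponectin of adipocytes, had 71437 and 43436 reads in CKO, against 44425 and 7561 in WT. All 8 adipocyte markers were read in each library, so the labelled cell type was present in each, beside other cells. Prdm1 had 152 and 386 reads in CKO, against 514 and 1135 in WT; the part of the gene that a CKO allele lacks is not given, so this level does not check the labels. The log2 change of each member is therefore given with and without WT replicate 2.

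Among the 8 chemokines tested, Cxcl9, Cxcl12 and Cxcl13 were higher in both CKO libraries than in both WT libraries, Cxcl1, Cxcl2, Cxcl14 and Cxcl16 were lower in both, and Cxcl10 overlapped. Members whose CKO libraries were both above the WT libraries were 3 of 8, against 23.9% of 16871 genes tested, and those with both below were 4 of 8, against 26.8%. The log2 change was above 0 for 4 of 8, against 51.1% of all genes, and below 0 for 4 of 8, against 48.9%, and these counts of members were the same without WT replicate 2. No member passed an adjusted p under 0.05 in limma (0 of 8, against 0.0% of all genes tested), and voom weights also gave 0. At an unadjusted p under 0.05 in limma, 3 members were higher (3.35% of all genes) and 4 were lower (7.26%). These counts were 1 and 4 without WT replicate 2, where 1.54% of all genes were higher and 4.0% lower at that threshold. They were 1 and 0 without CKO replicate 1 (0.723% and 1.26% of all genes), and 1 and 2 without CKO replicate 2 (1.11% and 5.86%). Without WT replicate 1, with WT replicate 2 as the lone WT library, 6 of 8 members passed (Cxcl1, Cxcl2, Cxcl9, Cxcl12, Cxcl14 and Cxcl16, limma adjusted p 0.0442 to 0.0475), and so did 837 genes that were higher and 938 that were lower of the 16871. The log2 changes, CKO minus WT, ran from -2.61 to 3.91 with a median of -0.56, beside a median of 0.015 over all genes tested. With 2 libraries in each group an exact permutation test cannot give a p below 0.333, so only the limma fit across all genes was used. All values of change are on the log2(scaled reads + 1) scale, where scaled reads are reads divided by a size factor of 0.951 to 1.10 for each library.

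**Figure D1:**
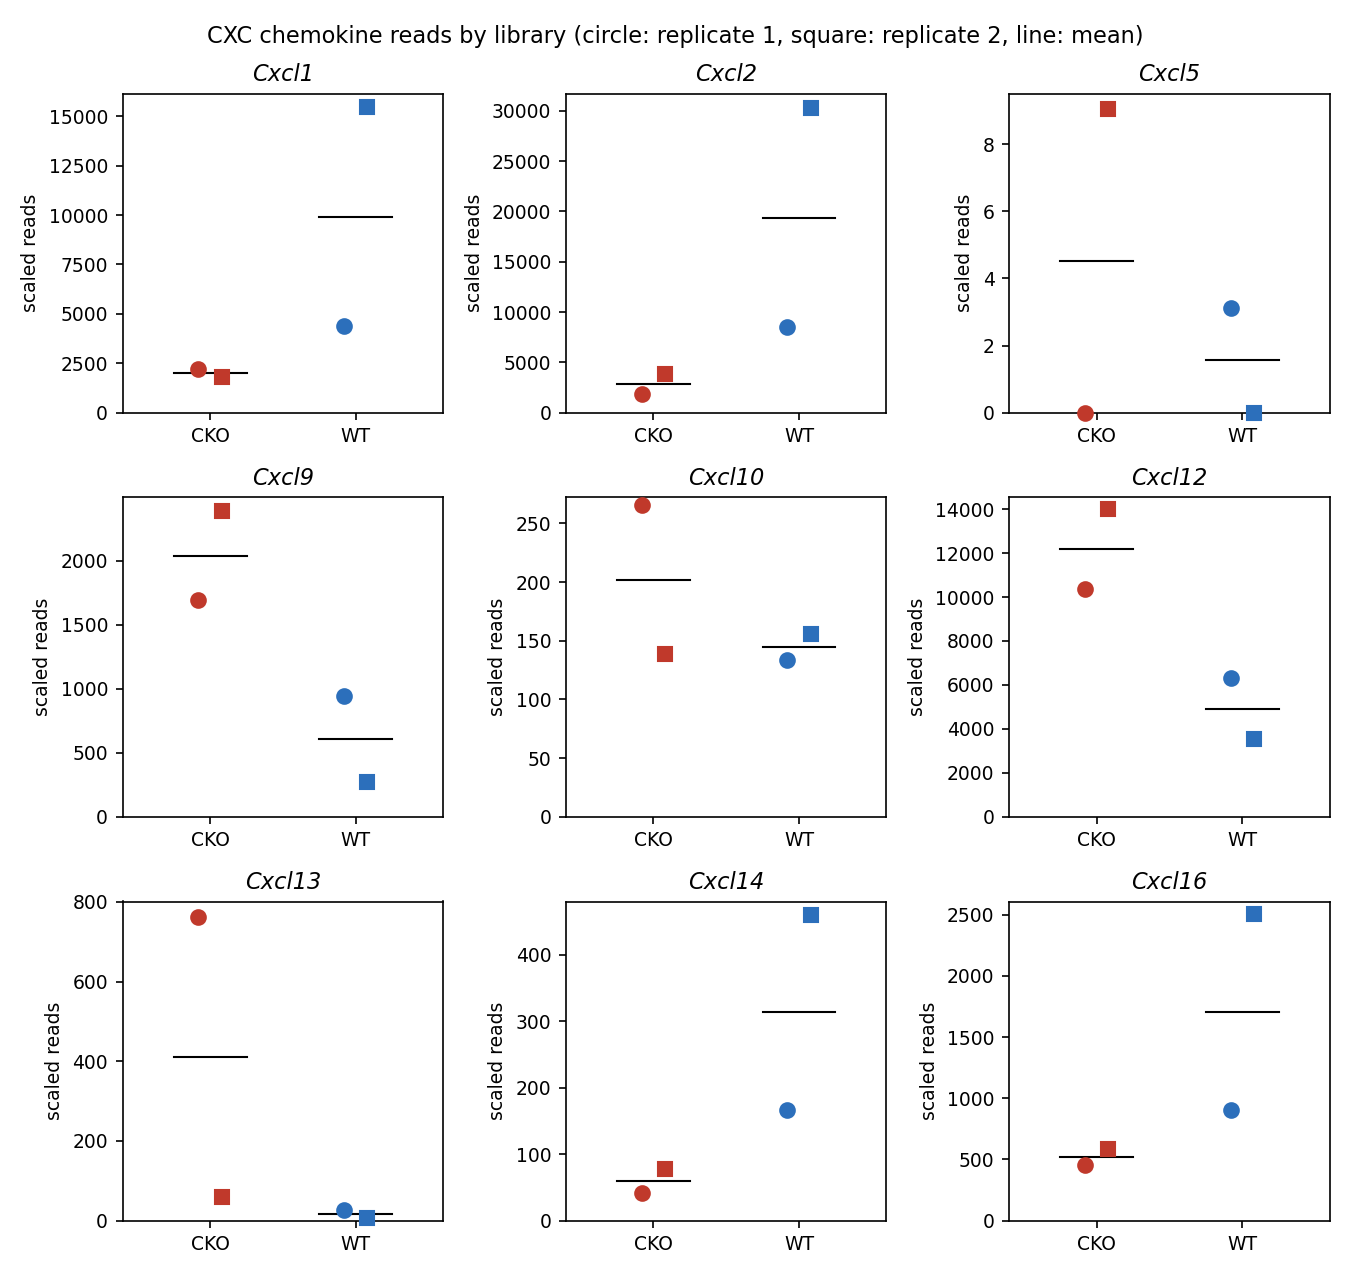
Scaled reads of each CXC chemokine (vertical axis, from 0, a scale of its own in each panel) in CKO and WT libraries; circles are replicate 1, squares replicate 2 and lines the mean of 2 libraries. Both CKO libraries lie below both WT libraries for Cxcl1, Cxcl2, Cxcl14 and Cxcl16 and above them for Cxcl9, Cxcl12 and Cxcl13.

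The neutrophil-drawing chemokines Cxcl1 and Cxcl2 were lower in CKO. Cxcl2 (chromosome 5, 90903871 to 90905938 on the plus strand of GRCm38) had 1804 and 4229 reads in CKO replicates 1 and 2, against 8164 and 28806 in WT replicates 1 and 2. WT replicate 2 was far above the other libraries, and the groups did not overlap. Scaled reads averaged 2819 ± 1431 in CKO and 19383 ± 15422 in WT (SD, n = 2 each), and the log2 change was -2.61 (SE 0.73), with an adjusted p of 0.459 in limma. Without WT replicate 2 the log2 change was -1.69.

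Cxcl1 (chromosome 5, 90891241 to 90893115, plus strand) lies 10.8 kb from Cxcl2. It had 2189 and 2016 reads in CKO, against 4212 and 14709 in WT. The CKO libraries were close together, and WT replicate 2 was again the highest. Scaled reads averaged 2009 ± 259 in CKO and 9920 ± 7843 in WT (SD, n = 2 each), a log2 change of -2.04 (SE 0.63; limma adjusted p 0.459) that was -1.13 without WT replicate 2. The paralogues kept a near constant ratio in the other libraries but not in CKO replicate 1: Cxcl2 had 0.824 and 2.10 reads for each Cxcl1 read in CKO replicates 1 and 2, against 1.94 and 1.96 in the WT libraries.

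Cxcl5 (chromosome 5, 90759360 to 90761624, plus strand) was hardly read, with 0 and 10 reads in CKO and 3 and 0 in WT. A count of 0 in CKO replicate 1 and WT replicate 2 allows a share of up to 1.19e-05% and 1.15e-05% of the reads. Its level was too low to be tested, and a difference between groups was not detectable at this depth. In this preparation, reads of the neutrophil-drawing group therefore came almost wholly from Cxcl1 and Cxcl2.

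The nearest relative outside the members is Cxcl3, a further ligand of Cxcr2. It shares 161 of the 2121 stretches of 31 bases in the transcripts of Cxcl2 (7.59%), so reads could be assigned to either. Cxcl3 had 2 and 64 reads in CKO, against 27 and 81 in WT, a small fraction of the Cxcl2 reads in every library. Cxcl1 shares no such stretch with any of the other CXC ligands compared.

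Cxcl9 was higher in CKO while Cxcl10 overlapped between the groups. Cxcl9 (chromosome 5, 92321347 to 92328079, minus strand), the interferon gamma-induced ligand of Cxcr3, had 1686 and 2635 reads in CKO, against 906 and 260 in WT. WT replicate 2 was the lowest library, the reverse of its place for Cxcl1 and Cxcl2. Scaled reads averaged 2038 ± 493 in CKO and 607 ± 472 in WT (SD, n = 2 each), a log2 change of 1.98 (SE 0.63; limma adjusted p 0.459). Without WT replicate 2 it was 1.09.

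Cxcl10 (chromosome 5, 92346638 to 92348889, minus strand) lies 18.6 kb from Cxcl9 and answers to all classes of interferon and to NF-kB. It had 265 and 153 reads in CKO, against 129 and 148 in WT, and only CKO replicate 1 stood above the rest. The log2 change was 0.41 with a 95% interval of -0.73 to 1.55 (limma adjusted p 0.683), and the value was -0.06 when CKO replicate 1 was left out and 0.52 when WT replicate 2 was. The gene Art3 overlaps Cxcl10 on the opposite strand. Whether their exons overlap was not checked, and whether counting used strand is not given, so reads of the pair may be mixed. For each Cxcl10 read there were 6.36 and 17.2 Cxcl9 reads in CKO, against 7.02 and 1.76 in WT.

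Cxcl12 and Cxcl13 were higher in CKO. Cxcl12 (chromosome 6, 117168535 to 117181367, plus strand) had 10332 and 15465 reads in CKO, against 6067 and 3371 in WT. The groups did not overlap, with CKO replicate 2 the highest and WT replicate 2 the lowest. Scaled reads averaged 12179 ± 2586 in CKO and 4922 ± 1948 in WT (SD, n = 2 each). The log2 change of 1.35 (SE 0.40; limma adjusted p 0.459) had the smallest error of the 8 and was 0.93 without WT replicate 2.

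Cxcl13 (chromosome 5, 95956951 to 95961068, plus strand) had 762 and 66 reads in CKO, against 26 and 6 in WT. CKO replicate 1 alone held most of its reads, and the other 3 libraries were low. Scaled reads averaged 412 ± 497 in CKO and 16.7 ± 14.6 in WT (SD, n = 2 each). The log2 change of 3.91 was the largest of the members and had the largest error (SE 1.38; limma adjusted p 0.459). Without CKO replicate 1 it was 2.09, without CKO replicate 2 it was 5.74, and without WT replicate 2 it was 2.94.

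Cxcl14 and Cxcl16 were lower in CKO. Cxcl14 (chromosome 13, 56288643 to 56296551, minus strand) had 41 and 86 reads in CKO, against 161 and 437 in WT. Scaled reads averaged 59.5 ± 26.0 in CKO and 313 ± 207 in WT (SD, n = 2 each), a log2 change of -2.27 (SE 0.65; limma adjusted p 0.459) that was -1.55 without WT replicate 2. The groups did not overlap, and the order of the libraries was that of Cxcl2.

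Cxcl16 (chromosome 11, 70453983 to 70459984, minus strand) had 457 and 651 reads in CKO, against 873 and 2383 in WT. Scaled reads averaged 524 ± 93.2 in CKO and 1706 ± 1131 in WT (SD, n = 2 each). The log2 change was -1.53 (SE 0.53; limma adjusted p 0.459) and -0.80 without WT replicate 2. The libraries again ran in the order of Cxcl2 and Cxcl14, with WT replicate 2 on top. Zmynd15 overlaps Cxcl16 on the opposite strand, and reads of the pair may be mixed, as for Cxcl10.

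**Figure D2:**
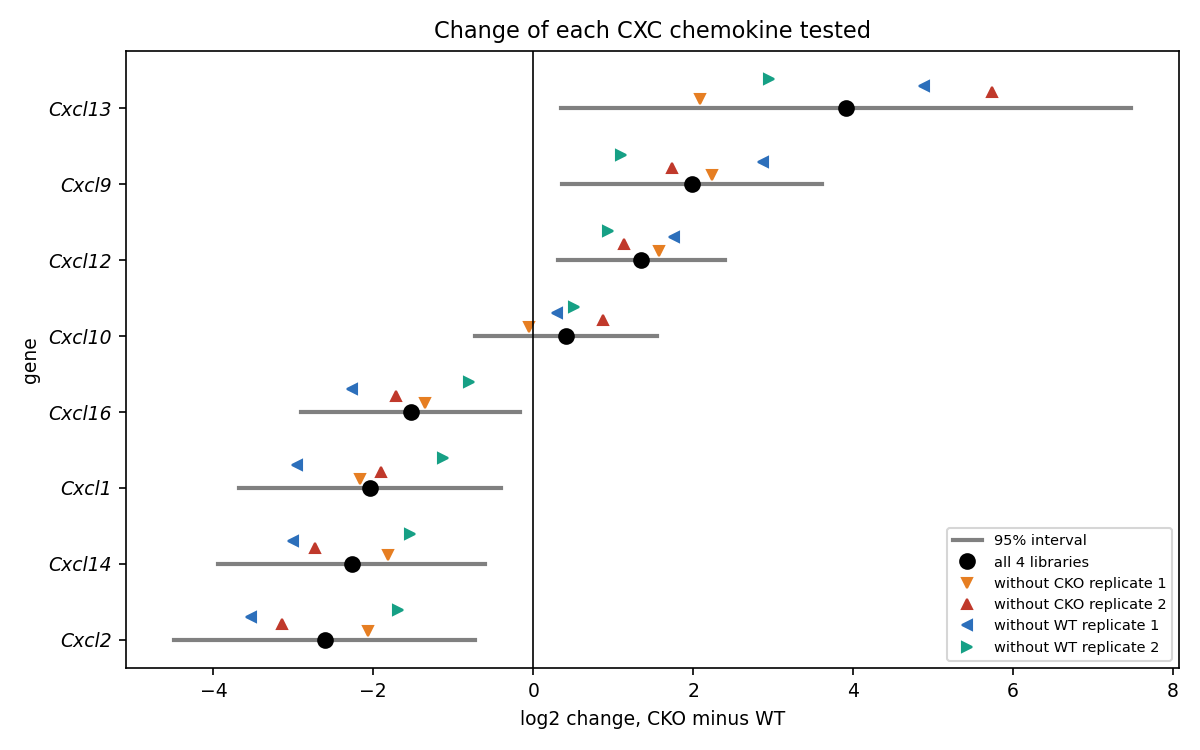
Log2 change of scaled reads, CKO minus WT (horizontal axis), for the 8 CXC chemokines tested, from all 4 libraries (black, with limma's 95% interval in grey) and with each library left out (coloured symbols). Leaving out WT replicate 2 brought every change but those of Cxcl10 and Cxcl13 closest to 0, and Cxcl10 crossed 0 without CKO replicate 1.

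The make-up of the CXC chemokine reads differed between all 4 libraries. The neutrophil-drawing genes took 22.8% and 24.7% of the reads of the 9 genes in CKO replicates 1 and 2, against 60.3% and 86.8% in WT replicates 1 and 2. The interferon-induced genes took 11.1% and 11.0% in CKO, against 5.04% and 0.814% in WT. Shares within a library need no scaling, and the CKO libraries resembled each other more than the WT libraries did. Cxcl12 took 58.9% (95% Wilson interval 58.2 to 59.6) and 61.1% (60.5 to 61.7) in CKO, against 29.5% (28.9 to 30.2) and 6.73% (6.51 to 6.95) in WT. These intervals cover counting error within each library only, not the spread between libraries. The reads are not stated to carry molecular identifiers, so duplicate reads may be counted. For each Cxcl2 read there were 0.935 and 0.623 Cxcl9 reads in CKO, against 0.111 and 0.00903 in WT.

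**Figure D3:**
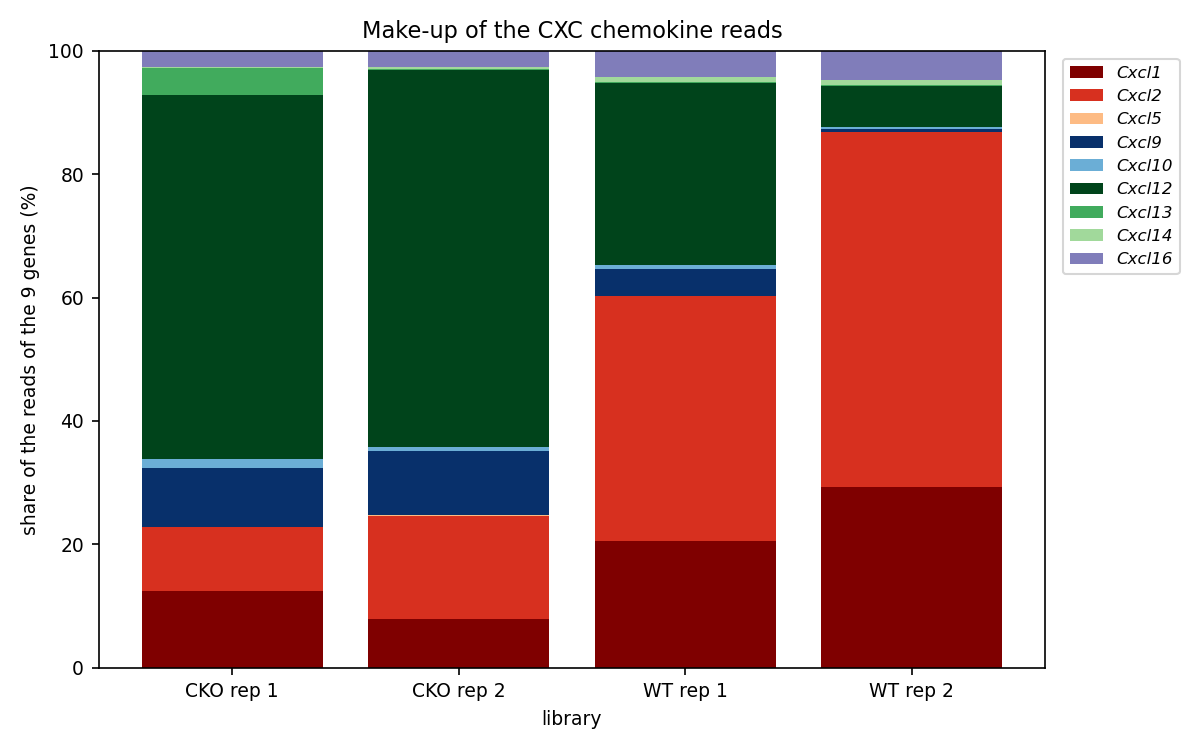
Share of each gene among the reads of the 9 CXC chemokines (vertical axis, percent, not corrected for length) in each library. The 3 neutrophil-drawing genes hold 22.8% and 24.7% in CKO replicates 1 and 2 and 60.3% and 86.8% in WT replicates 1 and 2.

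Levels were compared between genes as scaled reads for each kilobase of annotated exon. In CKO the highest mean levels per kilobase were those of Cxcl12 (1490), Cxcl2 (1363) and Cxcl1 (1072), followed by Cxcl9 (676). The range of Cxcl2 over the CKO libraries took in those of Cxcl12 and Cxcl1, so these neighbours did not differ beyond their spread. In WT the highest mean levels per kilobase were those of Cxcl2 (9373) and Cxcl1 (5291), whose ranges overlapped, with Cxcl12 (602) and Cxcl16 (565), whose ranges also overlapped, well below them. Cxcl13 followed Cxcl9 in CKO at a mean of 358 per kilobase, carried by CKO replicate 1 (664, against 52.0 in CKO replicate 2), and next to last in WT at 14.5. Cxcl14 stood at 32.6 per kilobase in CKO and 172 in WT, and Cxcl10 at 89.7 in CKO and 64.3 in WT. Cxcl5 was the lowest in both groups, at 2.43 in CKO and 0.836 in WT.

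**Figure D4:**
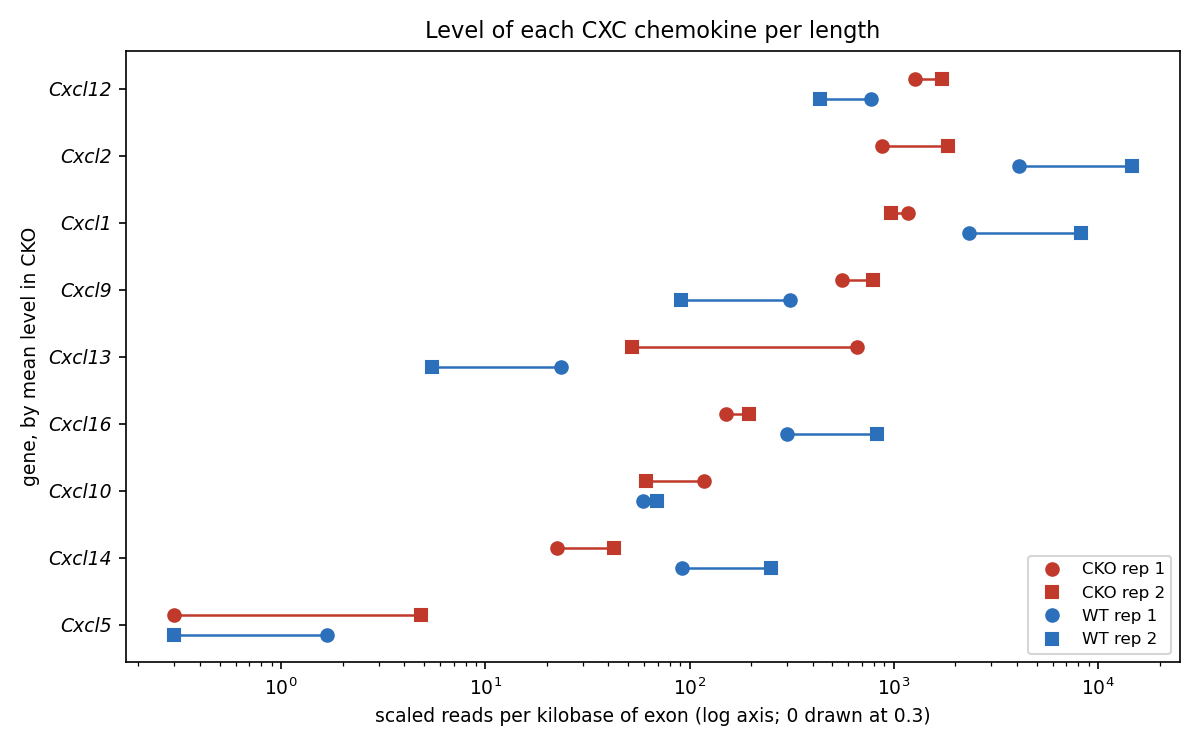
Scaled reads per kilobase of exon (horizontal log axis, 0 drawn at 0.3) for each CXC chemokine, with a circle for replicate 1, a square for replicate 2 and a line between them. Genes are ordered by their mean in CKO, and Cxcl12 is at the top in CKO while Cxcl2 and Cxcl1 are highest in WT.

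Macrophage markers moved with the lower members. Of 9 macrophage markers, 8 were lower in both CKO libraries than in both WT libraries, against 26.8% of all genes tested, and Mertk overlapped (log2 change -0.03). At an unadjusted p under 0.05 there were 7, against 7.26% of all genes, none after adjustment in limma, and no marker was at 0. Their summed scaled reads were 32385 and 74716 in CKO replicates 1 and 2, against 152126 and 434789 in WT replicates 1 and 2, a span of 13.4-fold. In bulk samples fewer cells of a type and less RNA per cell cannot be told apart.

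Set against macrophage marker reads of the same library, Cxcl2 and Cxcl14 differed little. Cxcl2 had 55.8 and 51.3 reads per 1000 macrophage marker reads in CKO, against 55.7 and 69.7 in WT, a span of 1.36-fold over libraries whose scaled Cxcl2 reads spanned 16.8-fold. Cxcl14 had 1.27 and 1.04 in CKO, against 1.10 and 1.06 in WT, a span of 1.22-fold beside 11.2-fold for its scaled reads. With Lyz2, which gave 55.9% to 70.1% of these marker reads, left out, the spans were 1.36-fold for Cxcl2 and 1.35-fold for Cxcl14. Set against Adgre1 alone they were 1.51-fold and 2.16-fold, and both CKO libraries then lay above both WT libraries for each gene.

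Cxcl1 had 67.7 and 24.4 reads per 1000 macrophage marker reads in CKO, against 28.8 and 35.6 in WT, so CKO replicate 1 stood above the other libraries. Cxcl16 had 14.1 and 7.89 in CKO, against 5.96 and 5.76 in WT. On this measure Cxcl16 was higher in both CKO libraries, the opposite of its direction in scaled reads. The 4 libraries spanned 2.77-fold for Cxcl1 and 2.45-fold for Cxcl16. With Lyz2 left out of the markers the spans were 1.87-fold and 2.27-fold. Set against Adgre1 alone they were 3.43-fold and 4.42-fold, and Cxcl1 then also lay higher in both CKO libraries than in both WT libraries. No test was made of these ratios, and the part of macrophages in the lower reads of Cxcl1, Cxcl2, Cxcl14 and Cxcl16 was not tested.

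Endothelial markers moved with Cxcl9 and Cxcl12, and so did the dendritic cell marker sum, nearly all of it from Zbtb46. All 7 endothelial markers were higher in both CKO libraries than in both WT libraries, against 23.9% of all genes tested, 1 at an unadjusted p under 0.05, against 3.35%, and none after adjustment in limma, and none was at 0. Their summed scaled reads were 54355 and 81872 in CKO, against 45010 and 16147 in WT. Cxcl12 had 190 and 171 reads per 1000 endothelial marker reads in CKO, against 140 and 220 in WT, and the groups overlapped. Cxcl9 had 31.1 and 29.2 in CKO, against 20.9 and 16.9 in WT, with both CKO libraries still above both WT libraries. The 4 libraries spanned 1.57-fold for Cxcl12 and 1.84-fold for Cxcl9 on this measure, beside 3.95-fold and 8.73-fold for their scaled reads. Against smooth muscle and pericyte markers Cxcl12 spanned 2.09-fold, and against adipocyte markers also 2.09-fold. Against fibroblast and preadipocyte markers Cxcl12 spanned 8.56-fold, wider than its scaled reads. Per 1000 of those marker reads it had 599 and 1060 in CKO, against 319 and 124 in WT. Per 1000 dendritic cell marker reads Cxcl12 had 4504 and 3696 in CKO, against 3542 and 5472 in WT, a span of 1.55-fold. Cxcl9 had 735 and 630 in CKO, against 529 and 422 in WT, a span of 1.74-fold. Zbtb46, a transcription factor of dendritic cells that endothelial cells also express, gave 89.4% to 97.4% of the dendritic cell marker reads. The adipocyte markers, 7 of 8 higher in CKO and none at an unadjusted p under 0.05, summed to 1288470 and 835151 scaled reads in CKO, against 726050 and 225995 in WT. Per 1000 adipocyte marker reads Cxcl12 had 8.03 and 16.8 in CKO, against 8.68 and 15.7 in WT. The part of these cells in the higher reads of Cxcl9 and Cxcl12 was not tested.

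**Figure D5:**
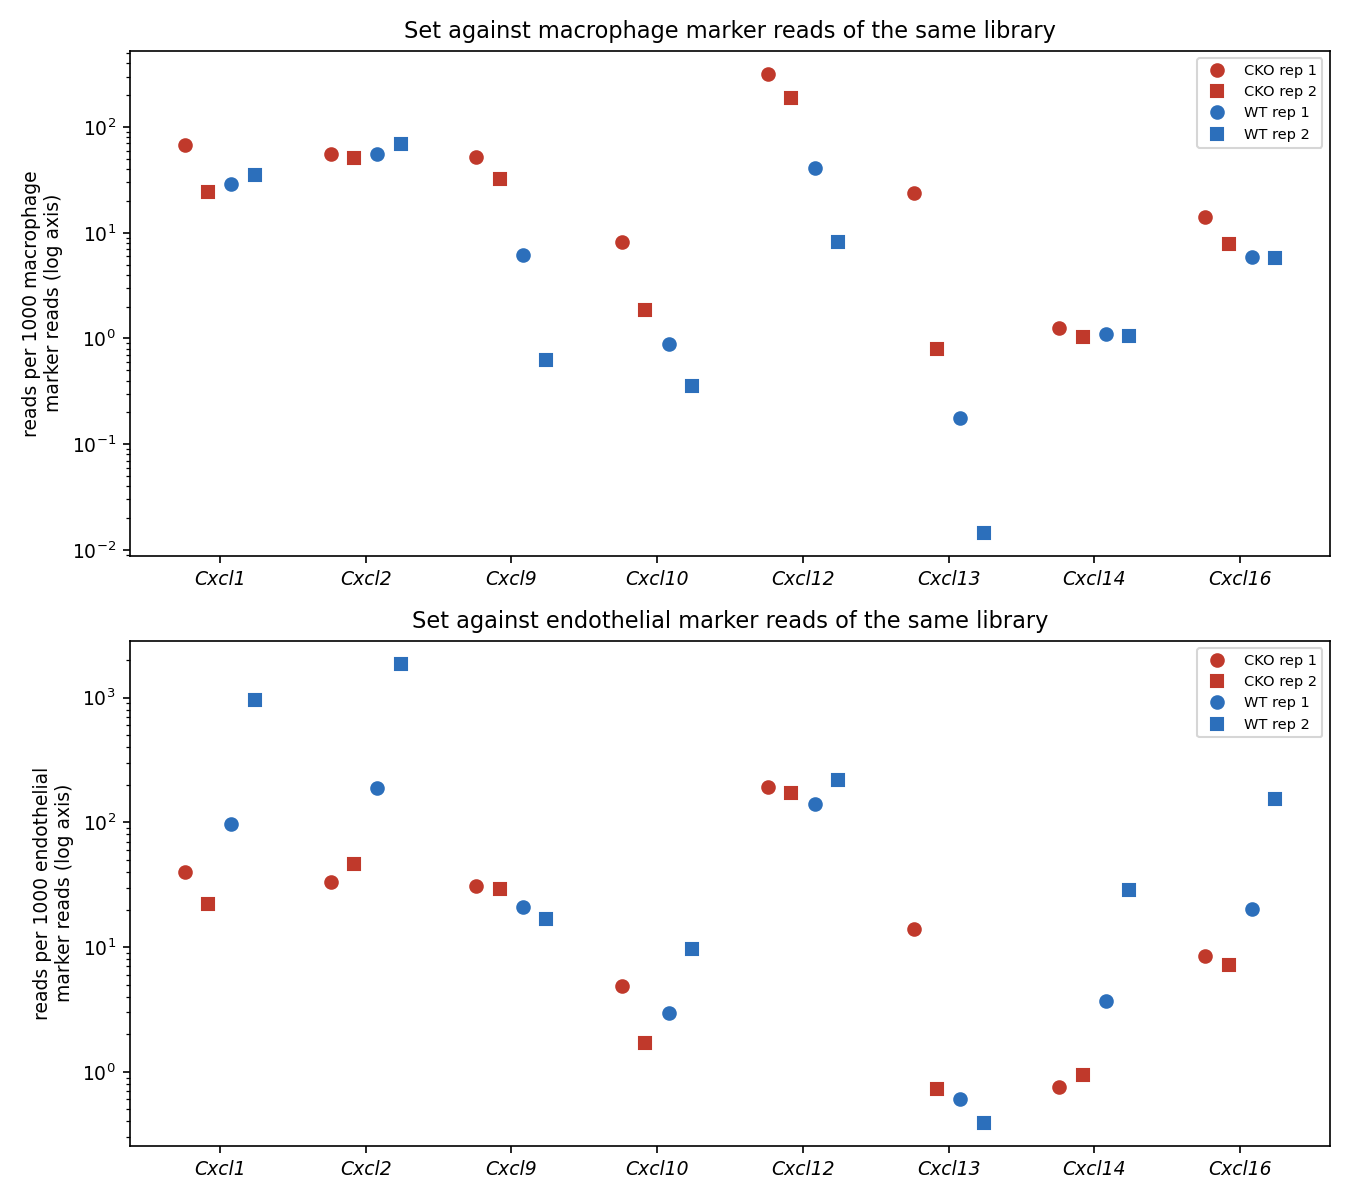
Reads of each CXC chemokine tested per 1000 marker reads of the same library (vertical log axes), with macrophage markers above and endothelial markers below; CKO is red, WT is blue, circles are replicate 1 and squares replicate 2. Cxcl2 and Cxcl14 lie nearly level against macrophage markers (spans of 1.36-fold and 1.22-fold, beside 16.8-fold and 11.2-fold in scaled reads). Cxcl12 spans 1.57-fold against endothelial markers, beside 3.95-fold in scaled reads.

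Cxcl13 moved with none of the marker sums to a like degree. Its scaled reads spanned 121-fold over the 4 libraries, and its reads per 1000 endothelial marker reads were 14.0 and 0.730 in CKO, against 0.600 and 0.391 in WT. Of the mesothelial markers, 3 of 5 tested were higher, against 51.1% of all genes tested. They summed to 331 and 200 in CKO, against 264 and 127 in WT, with Bnc1 at 0 in CKO replicate 2 and WT replicate 2.

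Markers of neutrophils and of T and NK cells left few reads. The 10 neutrophil markers summed to 380 and 408 scaled reads in CKO, against 507 and 841 in WT. Of the 6 tested, 3 were higher and 3 lower, against 51.1% and 48.9% of all genes tested. S100a8 (53.9% and 47.1% of the list's reads in WT replicates 1 and 2) and Csf3r (33.2% and 49.4%) were lower in both CKO libraries. Camp had 28 and 27 reads in CKO, against 4 and 1 in WT, and S100a9 had 51 and 54, against 13 and 7. The other 2 overlapped. Before adjustment, limma p fell below 0.05 for Camp and S100a9, both higher (3.35% of all genes), and S100a8 (lower, 7.26%). No marker of this list passed after adjustment. Ly6g, the defining surface marker, had 3 and 0 reads in CKO and 0 and 0 in WT. The 10 T and NK cell markers summed to 91.2 and 118 in CKO, against 94.5 and 85.2 in WT, with Cd8a at 0 reads in all 4 libraries. The dendritic cell markers tested were higher in CKO, 2 of 2, against 51.1% of all genes tested. The list summed to 2298 and 3790 in CKO, against 1779 and 648 in WT, mostly from Zbtb46. Of its untested markers, Flt3 had 2 and 1 reads in CKO, against 5 and 14 in WT. Xcr1 had 4 and 8 in CKO, against 6 and 12 in WT. Of the 6 fibroblast and preadipocyte markers, 5 were lower in CKO, against 48.9% of all genes tested, and none was at 0. They summed to 17274 and 13212 in CKO, against 19743 and 28619 in WT. Of the smooth muscle and pericyte markers, 4 of 6 were higher in CKO, against 51.1% of all genes tested, and none was at 0. They summed to 11590 and 17531 in CKO, against 14770 and 5891 in WT.

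The receptors of these chemokines were mostly near the limit of detection. Cxcr1 had 0 reads in all 4 libraries, and Cxcr2, the receptor of Cxcl1, Cxcl2 and Cxcl5, had 5 and 2 reads in CKO and 0 and 0 in WT. Cxcr3, the receptor of Cxcl9 and Cxcl10, had 15 and 2 reads in CKO, against 15 and 26 in WT, a log2 change of -1.69 (limma adjusted p 0.495). Cxcr6, the receptor of Cxcl16, had 1 and 8 in CKO, against 8 and 9 in WT. Cxcr5, the receptor of Cxcl13, had 24 and 24 in CKO, against 22 and 7 in WT, a log2 change of 0.76 (limma adjusted p 0.629).

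Cxcr4, the receptor of Cxcl12, was the most abundant signalling receptor in reads. It had 97 and 445 reads in CKO, against 603 and 2021 in WT, with no overlap and with WT replicate 2 the highest. The log2 change was -2.54 (SE 0.89; limma adjusted p 0.459), opposite in sign to that of Cxcl12. There were 107 and 34.8 Cxcl12 reads for each Cxcr4 read in CKO, against 10.1 and 1.67 in WT. Of the atypical receptors, Ackr3, which takes up Cxcl12, had 1107 and 1662 reads in CKO, against 2139 and 972 in WT (log2 change -0.22), and Ackr1 of venules and red cells had 23 and 39, against 57 and 32 (log2 change -0.63). Both overlapped between the groups.

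Of the 6 other CXC ligands, 3 were tested and none passed. Pf4, the platelet factor that fat macrophages also express, had 1340 and 1393 reads in CKO, against 1659 and 6386 in WT, a log2 change of -1.39 (limma adjusted p 0.460). Ppbp, the platelet basic protein, had 92 and 205 in CKO, against 89 and 105 in WT, with overlap. Cxcl3 had a log2 change of -1.91 (limma adjusted p 0.586). Cxcl11, a Cxcr3 ligand, had 42 and 6 reads in CKO, against 10 and 0 in WT, and was not tested; as with Cxcl10 and Cxcl13, CKO replicate 1 held the most. Cxcl15 had at most 1 read and Cxcl17 at most 3 in any library.

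Among NF-kB genes of the neutrophil-drawing group, inducers and inhibitors together, 12 of 14 had a negative log2 change, against 48.9% of all genes tested. At an unadjusted p under 0.05 in limma there were 6, against 7.26%, and none after adjustment (median -0.90, beside 0.015 over all genes tested). Nfkbia and Zc3h12a, which restrain this response rather than induce it, were among the 12, with log2 changes of -0.85 and -0.95. Tnf, the cytokine that activates NF-kB, had 279 and 574 reads in CKO, against 1382 and 5421 in WT, a log2 change of -2.90 (SE 0.73; limma adjusted p 0.459). Il1a, an interleukin 1, had 68 and 182 in CKO, against 323 and 530 in WT, a log2 change of -2.02 (SE 0.55; limma adjusted p 0.459). Tnf and Il1a ran in the direction of Cxcl1 and Cxcl2.

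Of 13 genes tested on the interferon side of Cxcl9 and Cxcl10, 9 had a positive and 4 a negative log2 change, against 51.1% and 48.9% of all genes tested, with 1 each way at an unadjusted p under 0.05, against 3.35% and 7.26%, and none after adjustment in limma (median 0.31). Jak2, a kinase of the interferon gamma receptor, had 2135 and 2858 reads in CKO, against 1528 and 1370 in WT, a log2 change of 0.64 (limma adjusted p 0.459). Ifngr2, a chain of the same receptor, had 884 and 1451 in CKO, against 2023 and 3844 in WT, a log2 change of -1.43 (limma adjusted p 0.459). Ifng, which encodes interferon gamma, had 0 and 0 reads in CKO and 1 and 1 in WT.

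Among proteases that trim or shed CXC chemokines, 6 of 6 had a negative log2 change, against 48.9% of all genes tested. At an unadjusted p under 0.05 in limma there was 1, against 7.26%, and none after adjustment. Both CKO libraries lay below both WT libraries for 2 of the 6, against 26.8% of all genes, and the other 4 overlapped. Mmp12, a macrophage elastase that trims neutrophil-drawing chemokines, had 673 and 9809 reads in CKO, against 34878 and 91133 in WT, a log2 change of -4.59 (SE 1.31; limma adjusted p 0.459). Adam17, a sheddase of Cxcl16, had 1402 and 2291 in CKO, against 2466 and 5449 in WT, a log2 change of -1.17 (SE 0.47; limma adjusted p 0.459).

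The genes nearest in pattern to the most abundant member of each role were found by the root-mean-square difference of centred log2 values over the 4 libraries, among 12943 other protein-coding genes. For Cxcl2 they were Pstpip1 (difference 0.022), with 81 and 186 reads in CKO against 368 and 1329 in WT, and Susd3 (0.042). For Cxcl9 they were Apol10b (0.051), with 1410 and 2113 reads in CKO against 707 and 222 in WT, and Epha2 (0.072). For Cxcl12 they were Tubb4a (0.033), with 188 and 270 reads in CKO against 107 and 57 in WT, and Hap1 (0.051). With 4 libraries many genes lie close to any such pattern.

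In the genome 6 of the 9 members lie within 5.20 Mb of chromosome 5. Of those tested, Cxcl1 and Cxcl2 lie at the lower coordinates and had negative log2 changes. Cxcl9, Cxcl10 and Cxcl13 lie further along and had positive ones. From Cxcl2 to Cxcl9 the gap is 1415 kb, and from Cxcl10 to Cxcl13 it is 3608 kb. Cxcl1 and Cxcl2, the nearest pair, were both lower in CKO, while Cxcl9 and Cxcl10, the next nearest, differed in that only Cxcl9 separated the groups.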

How the data were processed

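Per the submitters' processing notes, FastQC was used for the reads of the 4 libraries and STAR 2.7.5c for alignment, on GRCm38.p6. No source used here gives the tool and annotation for counting reads, or whether strand was used. The deposited values are on a log2 scale and, although described by the authors as normalised, were log2(reads + 1) with no scaling between libraries: with the log undone, 100% of the values of each library were whole (tolerance 0.01).

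Whole reads were recovered, divided by median-ratio size factors over 19847 genes, and taken to log2 with a pseudocount of 1, which understates the change of low genes. The test covered 16871 genes whose deposited log2 values averaged at least 3. It was the two-sided moderated test of limma 3.58.1 (R 4.3.3; eBayes, trend on) with group as its only term, 2 residual and 2.92 prior degrees of freedom, and Benjamini-Hochberg adjustment over every gene tested. The scaling was adopted because the deposited values held none. The fit was tested on simulated reads. Coordinates and exon lengths (all annotated exons of a gene, joined) come from GENCODE M21, whose identifiers matched 99.3% of the table.

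Replicates are numbered in record order and pair no samples, and the labels name no batch. Named genes are the 9 members and all tested genes of the lists of ligands and receptors. The 2 of smallest unadjusted p are named in the lists of proteases, NF-kB genes and the interferon side. Adgre1 and Adipoq are named, as are the 2 genes nearest in pattern to the most abundant member of each role. Beside them stand untested ligands and receptors, Prdm1, Ly6g, Ifng, Nfkbia and Zc3h12a. So do Flt3, Xcr1, Mertk, Lep, S100a8, S100a9, Camp and Csf3r, the largest marker of a list and markers at 0. The result of 1 list of cell type markers is not reported here. The members and all lists were chosen with earlier results of these data known, and the shorter kappaB form and the ratios to Adgre1 and without Lyz2 were chosen after the sequences or values had been seen. Alternatives were unscaled values, scaling by total reads, quantile normalisation, no filter, a minimum of 6, a pseudocount of 10, no trend, a robust fit, voom weights, and each library left out in turn.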

Additional observations from a re-analysis of the deposited data

How the results depend on the processing

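No gene passed an adjusted p under 0.05 in limma with all 4 libraries, whatever the scaling, filter, pseudocount or variance model. Leaving out a library gave 0 to 1775 genes, and 0 to 6 of the 8 CXC chemokines; the higher counts came without WT replicate 1 alone, where Cxcl1, Cxcl2, Cxcl9, Cxcl12, Cxcl14 and Cxcl16 passed in a fit whose lone WT library, WT replicate 2, is taken to vary as the CKO libraries do. The median change of the members, -0.56 with all libraries, was between -0.98 and -0.14 with a library left out. At an unadjusted p under 0.05, 0 members were called with no filter, where 2.06% of 55487 genes were higher and 1.39% lower, against 3 members higher and 4 lower in the tested set, where 3.35% and 7.26% of all genes were. The median was 0.41 with no filter, which brings in Cxcl5 as a ninth gene, and -1.53 with a minimum of 6, which drops Cxcl13. The change of Cxcl10 was between -0.059 (without CKO replicate 1) and 0.87 (without CKO replicate 2), and no other member changed sign in any setting. Unscaled values moved the median of all genes to 0.15, and the members kept their signs there. No paired analysis was possible because the labels give the libraries no shared replicate numbers. The libraries held 24152081 to 26742547 reads. Depth limits Cxcl5 and the receptors Cxcr1, Cxcr2, Cxcr3, Cxcr5 and Cxcr6, which had at most 26 reads in any library.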
